A study of Mus musculus with 9 samples.

Results

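The genes described are 44 enzymes and receptors of phosphatidic acid (PA), diacylglycerol and lysophosphatidic acid (LPA) turnover and signaling, without phospholipase D (PLD) itself. They were picked by name and function with earlier results of these data known, and each of the 44 symbols matched 1 gene identifier among the 52550 genes of the count table. All 44 had enough counts to be tested, among 18699 genes tested. The samples were spinal cord segments from 9 adult female C57BL/6N mice, taken 7 days after surgery, with 3 mice in each of 3 groups. Sham mice had the vertebral laminae removed and no contusion, and no injection is named for them. SCI mice received a force-controlled contusion at the T10 level followed by intraperitoneal DMSO, the solvent of the drug. SCI+FIPI mice received the same contusion followed by daily intraperitoneal FIPI, a small-molecule PLD inhibitor. The paper says of the groups together that treatment went on until the mice were killed, and gives a daily schedule for FIPI. Each library came from a 1-cm segment of cord that held the injury epicenter. No group received FIPI without injury.

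PA is the simplest membrane glycerophospholipid and a branch point of lipid metabolism. It is made from phosphatidylcholine by PLD, from diacylglycerol by diacylglycerol kinases, or from glycerol-3-phosphate by stepwise acylation through LPA, and it is removed by phosphatases that return diacylglycerol or by synthases that turn it into CDP-diacylglycerol for phosphatidylinositol. Outside cells, autotaxin cuts lysophosphatidylcholine to LPA, which acts on G protein-coupled receptors and is inactivated by cell-surface lipid phosphatases. In the nervous system LPA signaling is known for its effects on myelinating cells, microglia and growing neurites.

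Total counts ran from 20806000 to 24582377 per mouse. Summed levels of marker genes differed between the groups, in CPM, the counts of a gene in a normalized library scaled to 1000000 counts. All 10 neuron markers were called lower in SCI than in Sham mice, against 22.5% of all genes tested. Their sum was 6564 to 7349 CPM in Sham, 2000 to 2817 CPM in SCI and 3266 to 3864 CPM in SCI+FIPI mice. The sum of 6 oligodendrocyte markers was 32047 to 33610, 22625 to 25193 and 23146 to 27402 CPM in the same order. The sum of 8 microglia and macrophage markers was 396 to 534, 5713 to 6897 and 4192 to 5391 CPM, and that of 5 fibroblast and pericyte markers was 430.5 to 843.3, 6949 to 9612 and 6294 to 8353 CPM. Of the former list, Lyz2 alone had a mean of 129.5 CPM in Sham, 4529 CPM in SCI and 3396 CPM in SCI+FIPI mice. No defining marker of these 4 cell types was at 0 in all mice of a group. Of 4 Schwann cell markers the sum was 413 to 619 CPM in Sham, 595 to 746 CPM in SCI and 452 to 969.5 CPM in SCI+FIPI mice, with Pmp2 at 0 in all 3 Sham mice. The last 2 SCI+FIPI mice were the high ones. In the order Sham, SCI and SCI+FIPI, the sum of 6 astrocyte markers was 7828 to 8221, 11892 to 13693 and 12151 to 12673 CPM. Of these 6, 3 were called higher in SCI than in Sham mice, against 24.4% of all genes tested. Slc1a2 was called lower (mean 2343 CPM in Sham and 1331 CPM in SCI), against 22.5%. In the same order of groups, the sum of 3 oligodendrocyte precursor markers was 176 to 194, 355 to 365 and 298 to 319.9 CPM, and that of 4 endothelial markers was 136 to 151, 314.5 to 356 and 239 to 314.3 CPM. The sum of 4 bone markers was 14.7 to 19.0, 84.5 to 95.7 and 32.8 to 44.9 CPM, of which Col10a1 made 72.0 ± 7.52 CPM in SCI and 10.6 ± 5.77 CPM in SCI+FIPI mice (SD, n = 3). The other 3 bone markers went the other way between these groups, with Bglap called higher in SCI+FIPI mice (mean 0.363 CPM in SCI and 1.78 CPM in SCI+FIPI). The sums of the neutrophil, lymphocyte, ependymal, skeletal muscle and adipocyte lists overlapped between Sham and SCI mice. The part of these other cell types in the results was not tested. In such whole tissue, fewer cells of a type and less RNA per cell cannot be told apart. The p-values measure the spread between these mice only.

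Calls used the limits of the study, namely a log2 fold change of 0.5 or more in either direction and a Benjamini-Hochberg adjusted p under 0.05, here from the edgeR quasi-likelihood test. Of the 44 genes, 31 were called between SCI and Sham mice (70.5%, against 47.0% of all genes tested). Of these 14 were higher, against 24.4% of all genes tested, and 17 lower, against 22.5%. Another 7 had an adjusted p under the limit with a smaller fold change, which made 38 past the adjusted p, against 65.9% of all genes tested. The 3 mice of one group did not overlap with the 3 of the other for 41 of the 44 genes, against 70.5% of all genes tested. The median log2 fold change of the 44 genes was -0.19, beside -0.0031 over all genes tested, and the values spanned -1.82 to 2.47.

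Between SCI+FIPI and SCI mice, 3 of the 44 were called (6.82%, against 3.06% of all genes tested). All 3 were higher with FIPI, against 2.36% of all genes tested, and none was lower, against 0.695%. In the lower direction 4 of the 44 had an unadjusted edgeR p under 0.05, and DESeq2 and limma-voom called 0. No share of all genes at that unadjusted limit was computed, here or for the lists below. With 4 more under the fold limit, 7 passed the adjusted p, against 9.63% of all genes tested. Between SCI+FIPI and Sham mice, 27 of the 44 were called (61.4%, against 38.1% of all genes tested). Of these 12 were higher, against 21.2% of all genes tested, and 15 lower, against 17.0%, and 38 passed the adjusted p, against 59.1%. The 3 comparisons share mice in pairs, so a difference in a shared group enters both comparisons that use it.

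**Figure D1:**
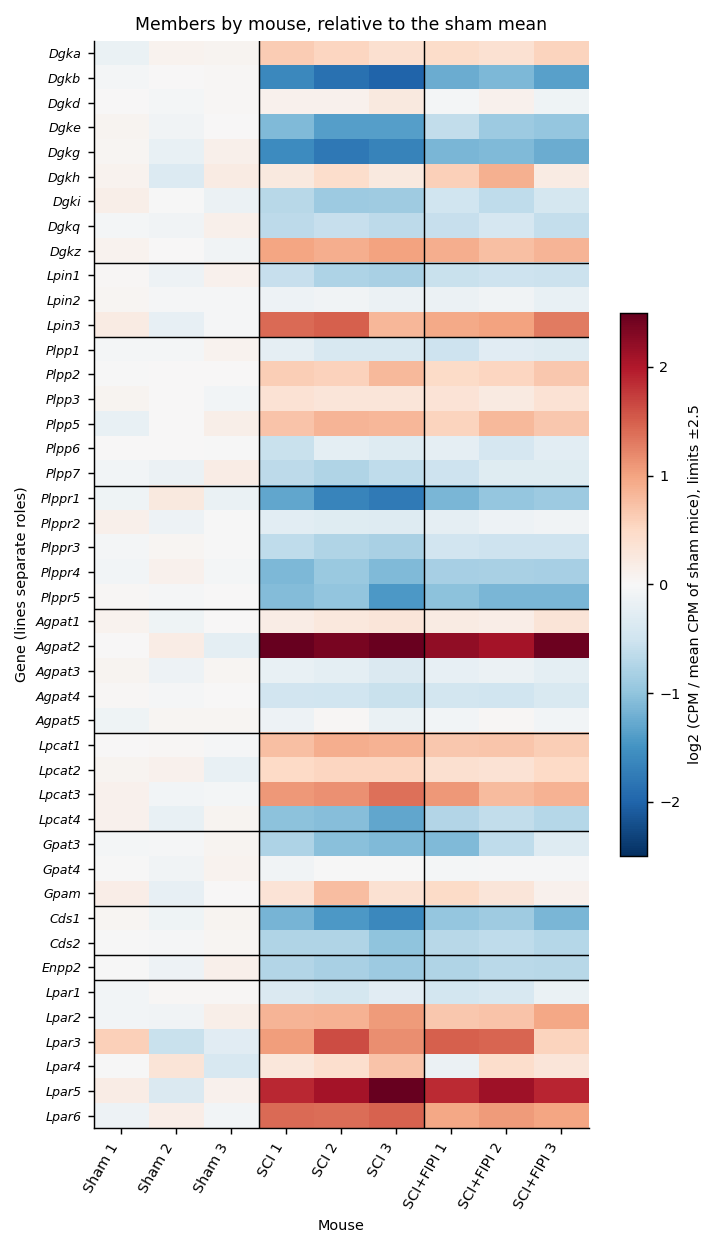
Level of each of the 44 genes (rows, ordered by role, with lines between roles) in each of the 9 mice (columns) as the log2 ratio of its CPM to the mean CPM of the sham mice. Agpat2 and Lpar5 were the reddest rows in both injured groups (log2 fold changes of 2.47 and 2.24 in SCI), and Dgkb and Dgkg the bluest in SCI (-1.82 and -1.67).

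Some of the genes with the largest changes are placed on the genome as follows (GRCm38, GENCODE M21). Agpat2 spans chr2:26593057-26604417 on the minus strand, Lpar5 spans chr6:125067920-125082472 and Lpin3 spans chr2:160880670-160906002 on the plus strand. Dgkg spans chr16:22468461-22657221 on the minus strand and Cds1 spans chr5:101765130-101823858 on the plus strand. All of them are protein-coding. The 250 bases before the RefSeq start of these genes (GRCm38.p6) are shown, 3 from genes that rose and then 2 from genes that fell in SCI mice, with Lpin3 and Cds1 chosen because a motif lies there. Capitals mark a motif found on either strand, of 3 that were searched: the AP-1 site TGACTCA, the PU.1 site GAGGAAGT and the cyclic AMP response element TGACGTCA.
Agpat2: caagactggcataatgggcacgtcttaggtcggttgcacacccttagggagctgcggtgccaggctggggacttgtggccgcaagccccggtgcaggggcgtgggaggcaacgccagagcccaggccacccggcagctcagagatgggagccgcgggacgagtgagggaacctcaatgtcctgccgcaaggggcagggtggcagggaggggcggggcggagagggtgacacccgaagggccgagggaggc
Lpar5: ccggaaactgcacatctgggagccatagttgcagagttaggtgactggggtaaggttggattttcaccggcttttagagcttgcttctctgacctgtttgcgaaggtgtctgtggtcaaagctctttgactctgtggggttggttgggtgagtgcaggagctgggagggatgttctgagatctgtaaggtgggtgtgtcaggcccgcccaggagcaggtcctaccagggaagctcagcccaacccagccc
Lpin3: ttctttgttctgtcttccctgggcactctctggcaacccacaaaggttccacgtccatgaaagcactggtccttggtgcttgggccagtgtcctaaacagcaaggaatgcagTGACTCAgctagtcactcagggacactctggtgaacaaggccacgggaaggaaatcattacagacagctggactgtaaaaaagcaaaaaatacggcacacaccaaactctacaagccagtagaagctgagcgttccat
Dgkg: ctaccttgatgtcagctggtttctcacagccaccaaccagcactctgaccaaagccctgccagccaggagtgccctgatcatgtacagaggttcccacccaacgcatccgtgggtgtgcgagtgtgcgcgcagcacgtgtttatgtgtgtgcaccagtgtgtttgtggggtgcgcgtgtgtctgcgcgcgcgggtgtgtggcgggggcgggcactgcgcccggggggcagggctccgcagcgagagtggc
Cds1: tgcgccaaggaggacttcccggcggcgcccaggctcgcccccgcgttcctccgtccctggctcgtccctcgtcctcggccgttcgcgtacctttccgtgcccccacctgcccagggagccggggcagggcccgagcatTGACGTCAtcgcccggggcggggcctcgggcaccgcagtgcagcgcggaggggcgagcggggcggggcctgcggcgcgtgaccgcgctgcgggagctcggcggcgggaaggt
The windows lie at chr2:26604418-26604667 on the minus strand, chr6:125067670-125067919 on the plus strand, chr2:160880420-160880669 on the plus strand, chr16:22657232-22657481 on the minus strand and chr5:101764880-101765129 on the plus strand. The Lpin3 window held 1 AP-1 site, which starts 138 bases before the gene, and the Cds1 window held 1 cyclic AMP response element, which starts 112 bases before it. G and C made up 69.2% of the Agpat2 window, 56.0% of that of Lpar5, 49.6% of that of Lpin3, 64.8% of that of Dgkg and 77.6% of that of Cds1. The RefSeq table held windows for 39 of the 44 genes. Over 32851 windows of all genes, 4.46% held the AP-1 site, 2.44% the PU.1 site and 1.55% the cyclic AMP response element. The 39 genes had 54 windows. Of these windows 3 held the first (of Agpat4, Lpar2 and Lpin3), 1 the second (of Dgkz) and 1 the third (of Cds1). A match of letters is a description and not a site of binding.

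Diacylglycerol kinases phosphorylate diacylglycerol to PA and so end the signal of the one lipid while starting that of the other. Of 9 kinases, 2 were called higher and 5 lower in SCI than in Sham mice, against 24.4% and 22.5% of all genes tested. Dgkz, the zeta kinase that limits diacylglycerol signaling in immune cells, neurons and muscle, stood at 134, 127 and 118 CPM in the sham mice, 249, 237 and 254 CPM in the SCI mice and 237, 213 and 228 CPM in the SCI+FIPI mice. Both injured groups lay above every sham mouse, with a log2 fold change of 0.96 ± 0.06 (SE, n = 3 a group, edgeR adjusted p = 7.9e-09) for SCI. Dgka, the calcium-regulated alpha kinase of T cells and other tissues, stood at 16.6, 19.9 and 19.5 CPM in the sham mice, 28.98, 27.1 and 24.6 CPM in the SCI mice and 25.7, 24.3 and 27.4 CPM in the SCI+FIPI mice. Its change in SCI was smaller at 0.52 ± 0.09, and that in SCI+FIPI against Sham mice, 0.47 ± 0.09, was under the fold limit. The call in SCI was lost in 5 of 19 other settings, among them those without the first Sham (0.45) or the first SCI mouse (0.47), with a lowest value of 0.37 under offsets for GC content and length.

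The kinases that fell most were Dgkb, Dgkg and Dgke. Dgkb, a calcium-sensitive kinase abundant in striatal and other neurons, stood at 51.6, 53.5 and 54.5 CPM in the sham mice, 17.4, 14.5 and 13.3 CPM in the SCI mice and 22.4, 24.5 and 20.7 CPM in the SCI+FIPI mice. The 3 groups did not overlap, with Sham highest and SCI lowest, and the gene fell in SCI with a log2 fold change of -1.82 ± 0.10 (SE, n = 3 a group, edgeR adjusted p = 8.6e-10). Dgkg, the related gamma kinase, stood at 14.7, 12.4 and 15.5 CPM in the sham mice, 4.78, 4.13 and 4.47 CPM in the SCI mice and 6.39, 6.57 and 5.998 CPM in the SCI+FIPI mice. It had the same order of groups and fell in SCI with a log2 fold change of -1.67 ± 0.13 (SE, n = 3 a group, edgeR adjusted p = 2.7e-08). Dgke, the epsilon kinase that prefers diacylglycerol with an arachidonoyl chain, stood at 75.1, 68.2 and 72.9 CPM in the sham mice, 33.7, 27.8 and 27.8 CPM in the SCI mice and 47.1, 38.3 and 37.1 CPM in the SCI+FIPI mice. Its groups again did not overlap, and it fell in SCI with a log2 fold change of -1.28 ± 0.10 (SE, n = 3 a group, edgeR adjusted p = 6.8e-08). The summed neuron markers were lower in the same mice, and their part in the falls of these kinases was not tested.

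The other 2 kinases that fell did so by less. Dgki, the iota kinase, stood at 13.6, 12.2 and 11.2 CPM in the sham mice, 7.59, 6.57 and 6.67 CPM in the SCI mice and 8.76, 7.88 and 9.02 CPM in the SCI+FIPI mice, with a log2 fold change in SCI of -0.82 ± 0.12. Dgkq, the theta kinase, stood at 39.2, 38.4 and 44.2 CPM in the sham mice, 25.9, 27.2 and 25.9 CPM in the SCI mice and 27.4, 30.4 and 26.97 CPM in the SCI+FIPI mice, with a log2 fold change of -0.62 ± 0.08. All injured mice lay below all sham mice for both, and 30.8% of the exon length of Dgkq overlaps neighboring genes, so its counts are less certain. Dgkd, the delta kinase, and Dgkh, the eta kinase, were not called in SCI, at 0.16 ± 0.07 and 0.31 ± 0.24. Dgkh stood at 1.63, 1.21 and 1.75 CPM in the sham mice, 1.803, 2.07 and 1.81 CPM in the SCI mice and 2.32, 2.84 and 1.76 CPM in the SCI+FIPI mice, on 28 to 67 counts a mouse, and was called higher in SCI+FIPI against Sham mice (0.59 ± 0.24, edgeR adjusted p = 0.0476), a call that 6 of 19 other settings kept.

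Lipins dephosphorylate PA to diacylglycerol inside the cell, on the route to triglycerides and membrane phospholipids. Lpin1, the lipin of muscle, fat and peripheral nerve, stood at 104, 92.8 and 109 CPM in the sham mice, 68.5, 59.9 and 57.8 CPM in the SCI mice and 69.3, 71.04 and 69.9 CPM in the SCI+FIPI mice. It fell in SCI with a log2 fold change of -0.72 ± 0.07, and no injured mouse reached the sham range. Lpin3 stood at 4.79, 3.58 and 4.09 CPM in the sham mice, 11.1, 11.7 and 7.42 CPM in the SCI mice and 8.05, 8.35 and 10.2 CPM in the SCI+FIPI mice. All 6 injured mice lay above the sham mice, the third SCI mouse least, and the gene rose in SCI with a log2 fold change of 1.28 ± 0.18 (SE, n = 3 a group, edgeR adjusted p = 2.0e-05). Lpin2, which is known from an inflammatory bone disease, was not called at -0.12 ± 0.06, although its SCI and Sham mice did not overlap.

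Lipid phosphate phosphatases remove the phosphate from PA and LPA, partly at the cell surface. Of 6 genes, 2 were higher and 1 was lower in SCI. Plpp5 stood at 15.7, 18.1 and 19.8 CPM in the sham mice, 29.4, 32.3 and 31.9 CPM in the SCI mice and 26.1, 31.3 and 28.5 CPM in the SCI+FIPI mice. Plpp2 stood at 13.4, 13.7 and 13.6 CPM in the sham mice, 20.7, 20.1 and 23.8 CPM in the SCI mice and 19, 19.5 and 21.6 CPM in the SCI+FIPI mice. In both, every injured mouse was above every sham mouse, with log2 fold changes in SCI of 0.80 ± 0.10 and 0.67 ± 0.09. Offsets for GC content and length lowered the change of Plpp2 to 0.34 and ended its call. Plpp7, a nuclear envelope protein related to these phosphatases, stood at 19.1, 18.01 and 22.6 CPM in the sham mice, 12.6, 11.9 and 12.8 CPM in the SCI mice and 13.9, 16.1 and 16.2 CPM in the SCI+FIPI mice. It fell in SCI with a log2 fold change of -0.68 ± 0.10, and its SCI and SCI+FIPI mice did not overlap. Plpp3, the main phosphatase of extracellular LPA, had the highest level of the family per length, at 56.6 ± 2.63 CPM per kb in Sham (SD, n = 3) and 70.8 ± 1.46 CPM per kb in SCI mice. Its log2 fold change of 0.32 ± 0.06 passed the adjusted p (0.000226, edgeR) under the fold limit. Plpp1 (-0.34 ± 0.09) and Plpp6 (-0.37 ± 0.09) also passed the adjusted p alone, and 25.8% of the exon length of Plpp1 overlaps another gene.

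The 5 plasticity-related genes encode membrane proteins that resemble these phosphatases and lack their catalytic residues, and they are known from growing axons and synapses. Of the 5, 4 were called lower in SCI (80.0%, against 22.5% of all genes tested). Plppr1 stood at 11.1, 14.04 and 10.6 CPM in the sham mice, 4.82, 3.804 and 3.502 CPM in the SCI mice and 5.36, 6.103 and 6.33 CPM in the SCI+FIPI mice. The groups were ordered Sham, SCI+FIPI, SCI with no overlap, and the fall in SCI was a log2 fold change of -1.56 ± 0.16 (SE, n = 3 a group, edgeR adjusted p = 5.0e-07). Plppr5 stood at 21.5, 20.6 and 21.1 CPM in the sham mice, 9.98, 10.7 and 7.85 CPM in the SCI mice and 10.4, 9.58 and 9.61 CPM in the SCI+FIPI mice, with a log2 fold change of -1.15 ± 0.11 (SE, n = 3 a group, edgeR adjusted p = 3.2e-07). The injured mice of both groups lay together, far under the sham mice.

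Plppr4, which tunes LPA-dependent glutamate release at excitatory synapses, stood at 29.6, 33.2 and 30.1 CPM in the sham mice, 14.1, 16.2 and 14.4 CPM in the SCI mice and 17.5, 17.8 and 17.4 CPM in the SCI+FIPI mice. Plppr3 stood at 48, 51.9 and 49.7 CPM in the sham mice, 32.2, 29.6 and 28.6 CPM in the SCI mice and 35.7, 34.6 and 34.9 CPM in the SCI+FIPI mice. In both genes all 6 injured mice were under the sham mice, with SCI+FIPI mice above SCI mice, and the log2 fold changes in SCI were -1.05 ± 0.08 and -0.73 ± 0.07. Plppr2, which made up the largest share of the family level in each group, had a log2 fold change of -0.29 ± 0.07, under the fold limit (edgeR adjusted p = 0.00141). Neuron markers were lower in the same mice here too, and their part in the falls of the family was not tested.

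De novo synthesis of PA begins with glycerol-3-phosphate acyltransferases, which make LPA inside the cell. Gpam, the mitochondrial enzyme, stood at 94.03, 72.3 and 84.7 CPM in the sham mice, 106, 143 and 109.6 CPM in the SCI mice and 116, 103 and 90.3 CPM in the SCI+FIPI mice. It rose in SCI with a log2 fold change of 0.52 ± 0.15 (edgeR adjusted p = 0.0119), and the second SCI mouse was the highest. Without that mouse the change was 0.37, without the second Sham mouse 0.42, and the call was lost in both cases and in 3 of the other settings. Gpat3, an enzyme of the endoplasmic reticulum, stood at 9.72, 9.93 and 10.6 CPM in the sham mice, 5.87, 4.88 and 4.72 CPM in the SCI mice and 4.69, 6.53 and 8.05 CPM in the SCI+FIPI mice. It fell in SCI with a log2 fold change of -0.97 ± 0.17, and 37.4% of its exon length overlaps other genes. Gpat4, the other enzyme of the endoplasmic reticulum, had 98.6 CPM in SCI and 101.0 CPM in Sham mice, a log2 fold change of -0.04 ± 0.06 with a 95% interval of -0.16 to 0.09.

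The AGPAT enzymes add the second acyl chain, turning LPA into PA. Agpat2, the enzyme whose loss causes congenital lipodystrophy, stood at 2.54, 2.85 and 2.13 CPM in the sham mice, 14.97, 12.9 and 13.9 CPM in the SCI mice and 11.7, 10.6 and 13.7 CPM in the SCI+FIPI mice. The injured mice were all several times above the sham mice, and the gene rose in SCI with a log2 fold change of 2.47 ± 0.15 (SE, n = 3 a group, edgeR adjusted p = 2.4e-09), the largest change of the 44 genes. The summed microglia and macrophage markers and the summed fibroblast and pericyte markers were higher in the same mice, and their part in the rise of Agpat2 was not tested. Agpat4, an enzyme of brain and other tissues, stood at 89.3, 86.2 and 88.6 CPM in the sham mice, 63.6, 62.6 and 60.2 CPM in the SCI mice and 63.9, 62.3 and 67.99 CPM in the SCI+FIPI mice. It fell in SCI with a log2 fold change of -0.50 ± 0.06, close to the fold limit, and the call was lost in 6 of 19 other settings, 4 of them with a single mouse left out (-0.50 to -0.48). Agpat1 (0.25 ± 0.06) and Agpat3 (-0.26 ± 0.07) passed the adjusted p in opposite directions under the fold limit, and Agpat5 did not pass it (-0.09 ± 0.07). The order of the AGPAT levels per kb changed at the top. Agpat3 led Agpat1 in Sham mice, at 48.2 ± 3.45 and 36.8 ± 2.44 CPM per kb, and Agpat1 stood at 43.8 ± 1.7 and Agpat3 at 40.1 ± 2.52 CPM per kb in SCI mice, where their ranges met.

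LPCAT enzymes reacylate lysophospholipids and thereby remodel membrane lipids. All 4 were called in SCI, 3 higher and 1 lower, against 47.0% of all genes tested called in either direction. Lpcat3, which places polyunsaturated chains in phosphatidylcholine, stood at 32.2, 28.7 and 29.1 CPM in the sham mice, 63.9, 65.8 and 77.7 CPM in the SCI mice and 63.7, 51.96 and 55.1 CPM in the SCI+FIPI mice. It rose in SCI with a log2 fold change of 1.21 ± 0.09 (SE, n = 3 a group, edgeR adjusted p = 4.6e-08), and the SCI+FIPI mice lay between the Sham and SCI mice. Some 10.2% of its exon length overlaps Emg1 on the other strand. Lpcat1, which makes saturated phosphatidylcholine, stood at 38.1, 39.04 and 37.1 CPM in the sham mice, 64.2, 71.8 and 69.6 CPM in the SCI mice and 61.02, 61.5 and 58.3 CPM in the SCI+FIPI mice. Lpcat2, which also makes platelet-activating factor in macrophages, stood at 32, 32.9 and 27.04 CPM in the sham mice, 43.2, 44.6 and 44.8 CPM in the SCI mice and 40.5, 39.1 and 43.5 CPM in the SCI+FIPI mice. Both rose in SCI, with log2 fold changes of 0.85 ± 0.06 and 0.53 ± 0.08, and no injured mouse overlapped with the sham mice. The call of Lpcat2 was lost in 4 of 19 other settings, with 0.44 without the third Sham mouse and 0.38 under offsets for GC content and length. Lpcat4 stood at 113, 92.9 and 111 CPM in the sham mice, 52.2, 50.6 and 42.99 CPM in the SCI mice and 63.3, 69.3 and 64.6 CPM in the SCI+FIPI mice. It fell in SCI with a log2 fold change of -1.12 ± 0.09 (SE, n = 3 a group, edgeR adjusted p = 5.5e-08), and its SCI+FIPI mice were all above its SCI mice.

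CDP-diacylglycerol synthases use PA as the precursor of phosphatidylinositol, and both were called lower in SCI, against 22.5% of all genes tested. Cds1 stood at 128, 116 and 130.3 CPM in the sham mice, 55.4, 46.4 and 40.96 CPM in the SCI mice and 64.1, 67.7 and 56.5 CPM in the SCI+FIPI mice. The groups did not overlap, and the fall in SCI was a log2 fold change of -1.39 ± 0.10 (SE, n = 3 a group, edgeR adjusted p = 1.5e-07). Cds2, the more abundant isoenzyme, stood at 464, 459.5 and 485 CPM in the sham mice, 279, 278 and 233 CPM in the SCI mice and 290.5, 302 and 287 CPM in the SCI+FIPI mice. Its log2 fold change in SCI was -0.83 ± 0.07. The sum of the 2 levels per kb was 83.2 ± 3.24 in Sham, 40.9 ± 4.48 in SCI and 48.1 ± 2.27 CPM per kb in SCI+FIPI mice (SD, n = 3).

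Enpp2 encodes autotaxin, which makes extracellular LPA and is known from oligodendrocytes and the choroid plexus. It stood at 444, 411 and 489 CPM in the sham mice, 269.9, 254 and 238 CPM in the SCI mice and 266, 279.7 and 276 CPM in the SCI+FIPI mice. All 6 injured mice were below the sham mice, and the gene fell in SCI with a log2 fold change of -0.82 ± 0.07 (SE, n = 3 a group, edgeR adjusted p = 1.3e-07). The SCI and SCI+FIPI mice overlapped, with 0.11 ± 0.07 between them. The summed oligodendrocyte markers were lower in the same mice, with 3 of 6 called lower in SCI, against 22.5% of all genes tested. Cldn11 went the other way at 0.13, not called. The part of oligodendrocytes in the change of Enpp2 was not tested.

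Of the 6 LPA receptors, 4 were called higher in SCI (66.7%, against 24.4% of all genes tested). Lpar5, a receptor of the P2Y-related family found on microglia and mast cells, stood at 1.198, 0.821 and 1.13 CPM in the sham mice, 3.9, 4.42 and 6.54 CPM in the SCI mice and 3.8, 4.58 and 3.901 CPM in the SCI+FIPI mice. The injured mice did not overlap with the sham mice, the third SCI mouse was the highest, and the rise was a log2 fold change of 2.24 ± 0.24 (SE, n = 3 a group, edgeR adjusted p = 1.1e-06). Lpar6, a receptor of the same family, stood at 4.31, 5.27 and 4.47 CPM in the sham mice, 12.5, 12.3 and 13.04 CPM in the SCI mice and 9.16, 9.83 and 9.23 CPM in the SCI+FIPI mice. The 3 groups were apart, with Sham lowest and SCI highest, and the rise was a log2 fold change of 1.43 ± 0.12 (SE, n = 3 a group, edgeR adjusted p = 5.9e-08). Lpar6 lies within Rb1 on the other strand, and 7.56% of its exon length overlaps an exon of that gene. Of the 8 microglia and macrophage markers, 7 were called higher in SCI than in Sham mice, against 24.4% of all genes tested. P2ry12 was level, at means of 27.0 CPM in Sham and 27.8 CPM in SCI mice. The part of these cells in the rises of the receptors was not tested.

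Lpar2, a receptor of the EDG family that couples to G proteins of several classes, stood at 2.11, 2.07 and 2.42 CPM in the sham mice, 3.94, 4.01 and 4.599 CPM in the SCI mice and 3.53, 3.603 and 4.32 CPM in the SCI+FIPI mice. Its rise was a log2 fold change of 0.92 ± 0.17 (SE, n = 3 a group, edgeR adjusted p = 0.000264), with injured mice above all sham mice. Lpar3, another EDG receptor, stood at 0.766, 0.345 and 0.418 CPM in the sham mice, 1.05, 1.57 and 1.14 CPM in the SCI mice and 1.43, 1.399 and 0.755 CPM in the SCI+FIPI mice, on only 8 to 38 counts a mouse. Its rise was a log2 fold change of 1.31 ± 0.38 (SE, n = 3 a group, edgeR adjusted p = 0.00753), and its first sham mouse and the third SCI+FIPI mouse were nearly level. The sham mice had 16, 8 and 10 counts, and the gene met the filter for testing through the injured mice, where it was high. Its calls against Sham mice are therefore weaker than those of the other receptors called. Lpar4, a P2Y-related receptor of vessels and other tissues, stood at 3.69, 4.67 and 2.8 CPM in the sham mice, 4.53, 4.96 and 6.08 CPM in the SCI mice and 3.35, 5.04 and 4.57 CPM in the SCI+FIPI mice. Sham and SCI mice overlapped, and the change of 0.48 ± 0.21 did not pass the adjusted p (0.0569, edgeR). Lpar1, the receptor of oligodendrocytes and neural progenitors, stood at 123, 132 and 131 CPM in the sham mice, 99.7, 95.3 and 106 CPM in the SCI mice and 93.7, 97.3 and 115 CPM in the SCI+FIPI mice. It was lower in all injured mice than in the sham mice, and its log2 fold change of -0.36 ± 0.07 passed the adjusted p (0.000601, edgeR) but not the fold limit.

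**Figure D2:**
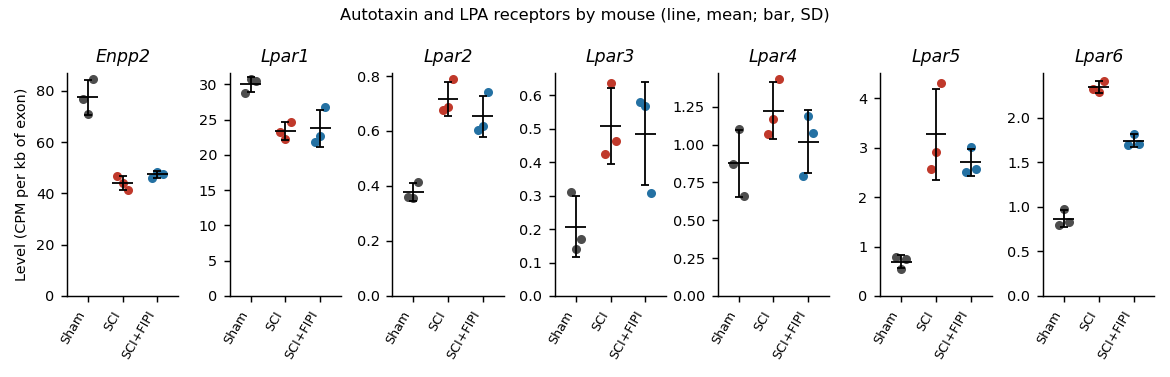
Level of autotaxin (Enpp2) and of the 6 LPA receptors in CPM per kb of exon (vertical axis, from 0, scaled separately for each gene) in each mouse of the 3 groups, with the mean as a line and the SD as a bar. Lpar1 stayed the most abundant receptor in each group, at 29.98 ± 1.08, 23.4 ± 1.26 and 23.8 ± 2.62 CPM per kb, while Lpar5 went from 0.692 ± 0.132 to 3.27 ± 0.922 and 2.701 ± 0.279 CPM per kb.

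The makeup of the families is given as each gene's share of the summed level per kb in a mouse. These shares are descriptions and were not tested. Lpar1 made up 90.8% ± 0.683 of the LPA receptor level in Sham, 74.5% ± 2.14 in SCI and 78.2% ± 2.41 in SCI+FIPI mice (SD, n = 3). The summed receptor level itself was 33.0 ± 1.01, 31.5 ± 2.33 and 30.4 ± 2.595 CPM per kb, with overlapping groups. The P2Y-related Lpar5 and Lpar6 made up 2.11% ± 0.454 and 2.62% ± 0.225 in Sham mice, and 10.3% ± 2.13 and 7.45% ± 0.3302 in SCI mice. In Sham mice Lpar4, Lpar6 and Lpar5 were within their spread of each other at the next ranks, whereas in SCI mice Lpar5 and Lpar6 came ahead of Lpar4.

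Dgkz made up 35.6% ± 1.89 of the diacylglycerol kinase level in Sham, 59.2% ± 0.804 in SCI and 55.9% ± 1.78 in SCI+FIPI mice. The share of Dgkb was 8.26% ± 0.352, 1.99% ± 0.263 and 3.08% ± 0.299 in the same order, and that of Dgke was 15.2% ± 0.505, 5.33% ± 0.541 and 7.55% ± 0.783. The zeta kinase held most of the summed level after injury, and the total was 56.7 ± 1.03 CPM per kb in Sham and 66.5 ± 1.83 CPM per kb in SCI mice. Among the LPCAT enzymes, Lpcat4 led in Sham mice with 58.5% ± 3.18 and Lpcat3 held 14.4% ± 0.423. In SCI mice Lpcat3 stood at 31.9% ± 2.98 and Lpcat4 at 26.04% ± 3.05, and in SCI+FIPI mice Lpcat4 stood at 35.4% ± 2.09 and Lpcat3 at 26.4% ± 2.41. The lipin share of Lpin1 was 60.05% ± 1.91, 44.1% ± 2.24 and 48.4% ± 0.687, and that of Lpin3 was 6.397% ± 0.6502, 18.6% ± 3.11 and 16.01% ± 1.92.

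**Figure D3:**
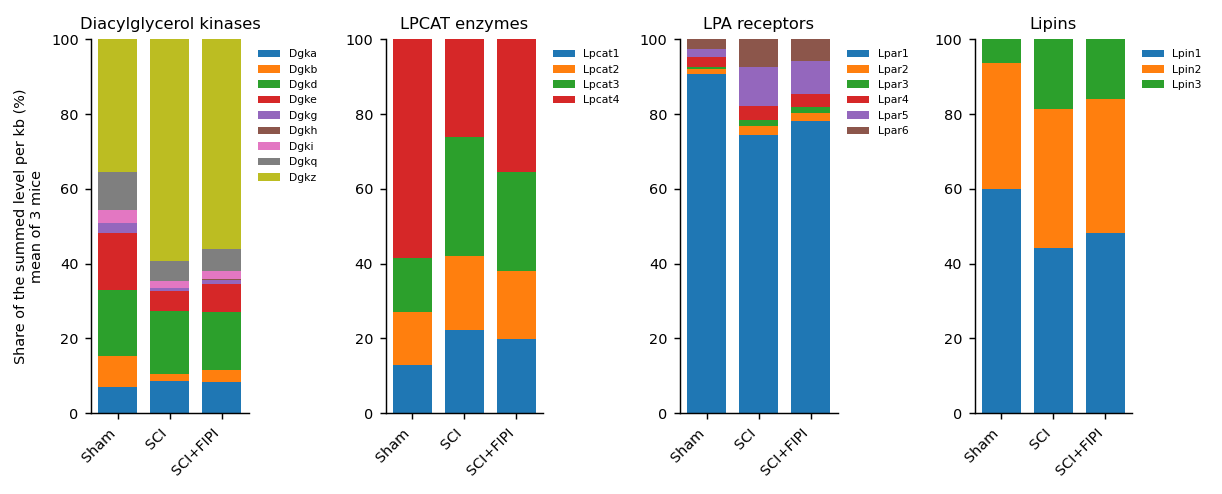
Share of each gene in the summed level per kb of its family (vertical axis, percent, mean of 3 mice), for diacylglycerol kinases, LPCAT enzymes, LPA receptors and lipins in the 3 groups. Dgkz filled more of the kinase bar after injury (35.6% ± 1.89 in Sham and 59.2% ± 0.804 in SCI), and Lpcat4 filled less of the LPCAT bar (58.5% ± 3.18 and 26.04% ± 3.05).

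The comparison of SCI+FIPI with SCI mice sets mice given FIPI beside mice given its solvent after the same contusion, and PLD activity is not among the values used here. The 3 genes called were Dgkb, Dgkg and Plppr1, which stood at log2 fold changes of -1.82, -1.67 and -1.56 in SCI against Sham mice, a comparison that shares the SCI mice. Dgkb was higher with FIPI by a log2 fold change of 0.58 ± 0.10 (SE, n = 3 a group, edgeR adjusted p = 0.00474), its SCI+FIPI mice at 20.7 to 24.5 CPM lying above its SCI mice at 13.3 to 17.4 CPM. Dgkg was higher by a log2 fold change of 0.50 ± 0.13 (SE, n = 3 a group, edgeR adjusted p = 0.0279), at the fold limit, and Plppr1 by a log2 fold change of 0.55 ± 0.16 (SE, n = 3 a group, edgeR adjusted p = 0.0445). Both stayed well below their sham values, on 83 to 155 counts a mouse in the injured groups. The call of Dgkb held in each of 19 other settings, whereas those of Dgkg and of Plppr1 were each lost in 10 of the 19, with log2 fold changes of 0.45 to 0.56 and of 0.46 to 0.70.

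Leaving out single mice moved this count between 1 and 5. Without the first SCI mouse 5 genes were called, with Dgke and Cds1 added, and without the second or the third SCI mouse or the first SCI+FIPI mouse Dgkb alone was called. Without the second or the third SCI+FIPI mouse, those with high Schwann cell markers, Dgkb and Dgke were called.

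Another 4 genes passed the adjusted p with smaller fold changes. Dgke (0.46 ± 0.10, edgeR adjusted p = 0.014), Lpcat4 (0.44 ± 0.09, adjusted p = 0.0103) and Cds1 (0.40 ± 0.10, adjusted p = 0.0336) were higher with FIPI. Lpar6 was lower with FIPI (-0.42 ± 0.11, adjusted p = 0.0267), its SCI+FIPI mice at 9.16 to 9.83 CPM lying below its SCI mice at 12.3 to 13.0 CPM. With a correction for GC content and gene length, Lpar6 also passed the fold limit at -0.51. Without overlap between the groups, 16 of the 44 genes differed, against 30.2% of all genes tested, 13 higher with FIPI, against 15.7%, and 3 lower, against 14.5%. The 3 lower ones were Lpar6, Lpcat3 and Lpcat1, of which Lpcat3 (-0.28 ± 0.09, edgeR adjusted p = 0.0625) and Lpcat1 (-0.18 ± 0.06, adjusted p = 0.067) did not pass the test.

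For 28 of the 44 genes the 95% interval of the difference with FIPI lay within the fold limit on both sides. For the other 16 it reached past it. Agpat2, which rose most in SCI, differed by -0.22 ± 0.13 with a 95% interval of -0.48 to 0.05. Lpar5 differed by -0.27 ± 0.21 with a wider interval of -0.72 to 0.17, and Lpar3 had the widest, -0.80 to 0.66. Enpp2 had -0.05 to 0.26 and Lpar1 -0.14 to 0.18. Plppr5, which fell with Plppr1 in SCI mice, differed by 0.05 ± 0.11.

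**Figure D4:**
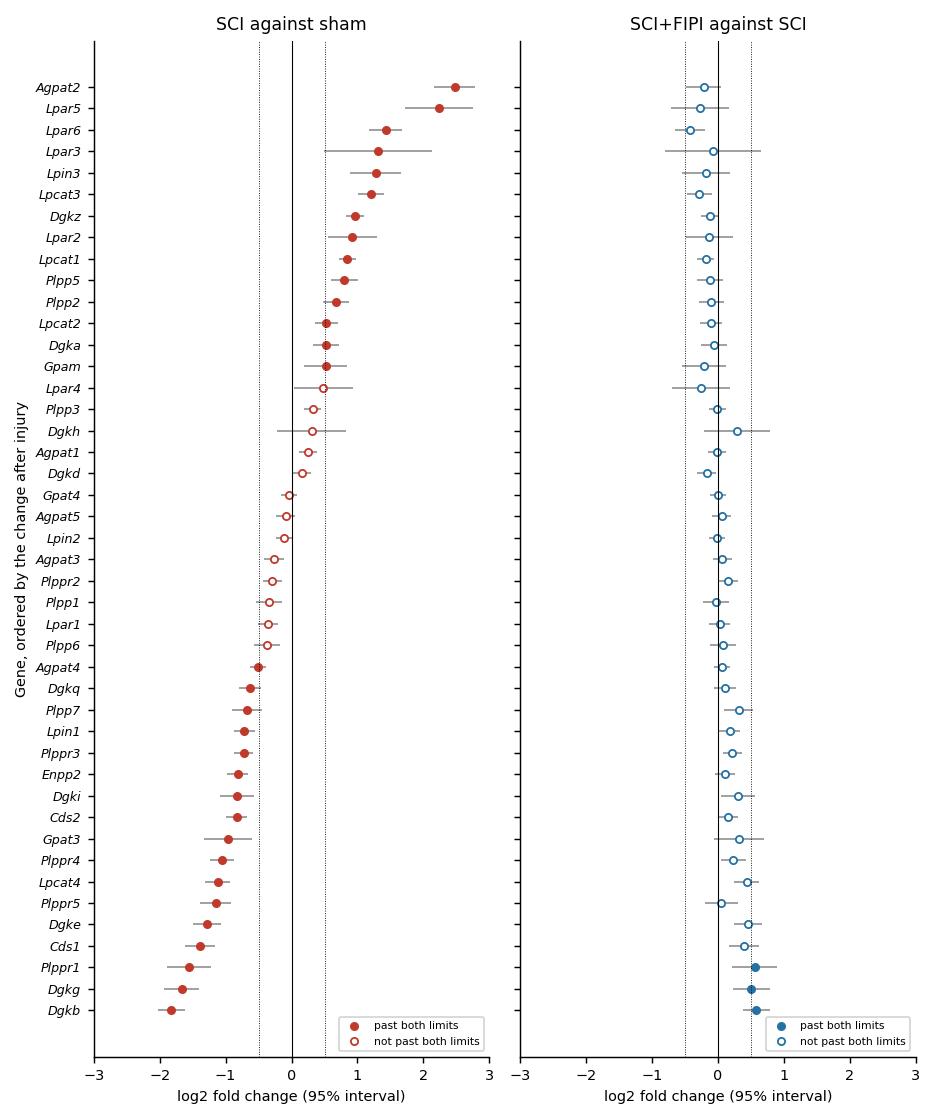
Log2 fold change (points) and 95% interval (bars) of each of the 44 genes, for SCI against sham on the left and SCI+FIPI against SCI on the right, in the order of the change after injury, with dotted lines at the fold limit of 0.5. Filled points passed both limits, 31 on the left and 3 on the right, and both panels use the same SCI mice.

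Neuron markers moved with these genes. Of 10 neuron markers, 7 were called higher in SCI+FIPI than in SCI mice (70.0%, against 2.36% of all genes). Their median log2 fold change was 0.58, beside 0.58 for Dgkb, 0.50 for Dgkg and 0.55 for Plppr1. As a ratio to the summed neuron markers (CPM of the gene for each 1000 CPM of the markers), Dgkb was at 6.25 ± 0.37 in SCI and 6.45 ± 0.18 in SCI+FIPI mice (SD, n = 3), with ranges of 5.93 to 6.65 and 6.34 to 6.66. Dgkg was at 1.87 ± 0.31 and 1.81 ± 0.10, and Plppr1 at 1.67 ± 0.10 and 1.71 ± 0.20. Relative to these markers the 2 injured groups overlapped for all 3 genes. Fold changes this close to those of the markers leave the ratios little room to differ, so the overlap is no separate evidence. Snap25, Nefm and Nefl, at 2057, 2206 and 1184 CPM in Sham mice, made most of the summed markers. The part of neurons in the differences with FIPI was not tested. In Sham mice the ratio was 7.59 ± 0.56 for Dgkb, above both injured groups, 2.01 ± 0.14 for Dgkg and 1.71 ± 0.37 for Plppr1. The ranges of the 2 injured groups also overlapped for the genes under the fold limit, where Dgke was at 12.4 ± 1.32 and 11.8 ± 2.08, Cds1 at 19.7 ± 0.78 and 18.0 ± 0.98 and Lpcat4 at 20.2 ± 1.54 and 18.9 ± 0.91. The Sham ratios of these 3 genes, 10.3 ± 0.12, 17.8 ± 0.35 and 15.01 ± 0.74, all lay below those of SCI mice. Microglia and macrophage markers, whose summed level in SCI+FIPI mice lay below that of SCI mice, had no called member of 8 in this comparison by edgeR, DESeq2 or limma-voom. At an unadjusted edgeR p under 0.05, 2 of them were lower. Of 5 fibroblast and pericyte markers, Rgs5 was called lower (-0.51, edgeR adjusted p = 0.00412), against 0.695% of all genes tested, and 1 was positive. All 4 endothelial and all 3 oligodendrocyte precursor markers had negative values. Past the adjusted p (edgeR) with smaller fold changes were 1 and 2 of these, against 9.63% of all genes tested. The part of any of these cell types in the level of Lpar6 was not tested.

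**Figure D5:**
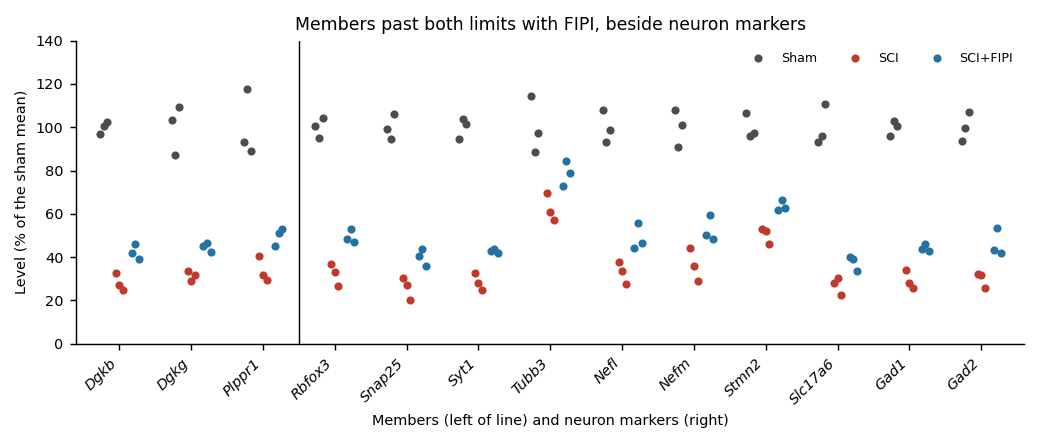
Level of the 3 genes called with FIPI (left of the line) and of the 10 neuron markers (right) in each mouse, as a percentage of the mean of the sham mice. For each gene of both sets the SCI+FIPI mice lay above the SCI mice and below the sham mice.

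Against Sham mice, the SCI+FIPI group shows which changes were present in mice given the drug. The leading rises were Agpat2 (2.26 ± 0.15, edgeR adjusted p = 1.5e-08), Lpar5 (1.96 ± 0.24, adjusted p = 7.0e-06), Lpin3 (1.10 ± 0.18, adjusted p = 0.000117), Lpar6 (1.00 ± 0.12, adjusted p = 4.1e-06) and Lpcat3 (0.92 ± 0.09, adjusted p = 1.2e-06). The leading falls were Dgkb (-1.24 ± 0.09, edgeR adjusted p = 5.4e-08), Dgkg (-1.17 ± 0.12, adjusted p = 1.4e-06), Plppr5 (-1.10 ± 0.11, adjusted p = 9.0e-07), Plppr1 (-1.01 ± 0.15, adjusted p = 4.4e-05) and Cds1 (-0.99 ± 0.10, adjusted p = 4.3e-06). Enpp2 was at -0.71 ± 0.07 and Lpar1 at -0.33 ± 0.07. Of the 31 genes called in SCI, Dgka, Plpp7, Agpat4, Lpcat2 and Gpam were not called in SCI+FIPI against Sham mice, and the first 4 of these still passed the adjusted p. For Gpam, the log2 fold change was 0.30 ± 0.15 (edgeR adjusted p = 0.106), and the difference between the 2 injured groups was -0.21 ± 0.14 (edgeR adjusted p = 0.406).

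Genes around these enzymes were counted on 4 lists of 88 genes, and the values beside the names are log2 fold changes. Among 38 tested neighbors of PA metabolism, 9 were higher and 8 lower in SCI than in Sham mice (44.7% called, against 47.0% of all genes tested). These included the drug targets, of which Pld2 was at 0.89 (edgeR adjusted p = 8.8e-08) and Pld1 at 0.48 (adjusted p = 0.000293), under the fold limit. Pld4, a microglial exonuclease, was at 2.37, Pld3, its lysosomal relative, at 1.53, Pld5 at -1.89 and Pld6 at -1.10. After Pld4, the next largest rise was that of Pla2g15, a lysosomal phospholipase (2.12), and after Pld5 the next largest fall was that of the kinase Dgkk (-1.74). Pld5 alone of the 38 (2.63%, against 3.06% of all genes tested) was called with FIPI against SCI mice (0.73, edgeR adjusted p = 0.00765), while Pld1 was at -0.12 and Pld2 at -0.16 without a call.

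Of 12 phospholipase C genes, which make diacylglycerol, 5 were higher and 4 lower in SCI (9 of 12 called, against 47.0% of all genes). None was called with FIPI against SCI by edgeR, DESeq2 or limma-voom, with 4 higher and 4 lower at an unadjusted edgeR p under 0.05. Under the fold limit, 5 of the 12 passed the adjusted p (edgeR), 3 of them higher with FIPI, against 9.63% of all genes tested. The largest rises in SCI were Plcb2 (2.16) and Plcg2 (2.16), forms of blood cells, and the largest falls Plcb4 (-1.47) and Plch1 (-1.28). Of 20 diacylglycerol effectors, 5 were higher and 9 lower (70.0% called, against 47.0%), led by Unc13d (1.93) and Prkcd (1.76) upward and by Rasgrp1 (-1.81) and Unc13c (-1.79) downward. With FIPI against SCI, 3 effectors were higher, namely Rasgrp1 (0.76), Chn1 (0.66) and Unc13c (0.58), and Prkd2 was lower (-0.53), which made 4 of 20 called, against 3.06% of all genes. Another 6 passed the adjusted p (edgeR) with smaller fold changes, which made 10 of 20 past it, against 9.63% of all genes tested. Of 17 genes through which LPA receptors act, 7 were higher and 1 was lower in SCI (47.1% called, against 47.0%). With FIPI against SCI none was called by edgeR, DESeq2 or limma-voom, with 1 higher and 9 lower at an unadjusted edgeR p under 0.05. These unadjusted counts have no share of all genes to be set against. Under the fold limit, 6 of the 17 passed the adjusted p (edgeR), 1 of them higher with FIPI and the rest lower, against 9.63% of all genes tested. In SCI against Sham mice the small GTPase Rhoc (2.17) and the inhibitory G protein subunit Gnai2 (1.26) rose most. Gnai1 (-1.43) was the one called lower there, while another 4 were lower past the adjusted p with smaller fold changes.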

How the data were processed

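Poly(A) RNA from the spinal cord of 9 mice was sequenced on the Illumina platform, 3 of them Sham, 3 SCI and 3 SCI+FIPI. The authors deposited raw counts per Ensembl gene, made from quality-filtered reads. Per the submitters' processing notes the build was GRCm38 and R 4.2.3 was used. The aligner, counter, annotation and strand setting are not given in the sources used here, so reads of overlapping genes on opposite strands may not have been separated.

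The counts were fitted with the quasi-likelihood test of edgeR 4.0.16 in R 4.3.3 (TMM factors, filterByExpr, 1 mean per group, all 9 mice), and p-values were adjusted over the 18699 genes tested. The limits were an absolute log2 fold change of 0.5 and an adjusted p of 0.05. Total counts were 20806000 to 24582377 per mouse, of which 20785820 to 24560168 lay in the genes tested. CPM used the counts in the genes tested multiplied by the TMM factors, and levels per kb used exon lengths of GENCODE M21. The fit was tested on simulated data. For SCI+FIPI against SCI it called 50 of 67 genes planted at an absolute log2 fold change of 0.7 and 62 of 67 at 1.0. Among genes without a planted change it called 10 of 18189. No change at the fold limit was planted, so a gene near that limit can differ without a call. With 3 mice against 3, an exact permutation test cannot give a p below 0.1, so none was used. Values in every mouse were given for genes past both limits in any comparison and for all LPA receptors and Enpp2, the standard error and adjusted p for the 5 largest rises and falls of each comparison, and list genes as counts with the Pld genes and the 2 largest rises and falls.

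The 44 genes, the pathway lists and the marker lists were chosen with earlier results of these data known. The alternatives were other scalings (RLE, upper quartile), no filter or at least 10 counts in every mouse, the groups compared alone, DESeq2 1.42.0, limma-voom (limma 3.58.1), a replicate block, offsets for GC content and length (mgcv 1.9.3) and each mouse left out in turn. Replicates of a group were separate libraries, which differed by more than sampling noise.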

Additional observations from a re-analysis of the deposited data

How the results depend on the processing

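The counts of genes called among the 44 were recomputed under 19 other settings. SCI against Sham gave 29 to 31 with single mice left out and 28 to 31 otherwise, SCI+FIPI against Sham 25 to 26 and 25 to 29, and SCI+FIPI against SCI 1 to 5 and 1 to 3, where limma-voom gave 1. In that last comparison 5 genes were called without the first SCI mouse, and 1 without the second SCI, the third SCI or the first SCI+FIPI mouse. The calls kept in every setting were 26 of 31, 17 of 27 and 1 of 3 (Dgkb). No called gene changed sign. In SCI against Sham the calls lost in some settings were those of Dgka (5 of 19), Plpp2 (2), Lpcat2 (4) and Gpam (5), all 4 with offsets for GC content and length and all but Plpp2 also with upper-quartile factors or without single mice, and Agpat4 (6), without the filter, with the groups compared alone and without the first or the third Sham, the third SCI or the third SCI+FIPI mouse. In SCI+FIPI against Sham the call of Dgkh was lost in 13 settings (0.42 to 0.81 over all 19), and those of Plpp2 (lowest 0.20), Plpp5 (0.49) and Lpcat1 (0.44) with the offsets. Single mice ended those of Dgki (the first Sham or the second SCI+FIPI mouse, -0.45 at the weakest), Dgkq (the third Sham or the third SCI+FIPI, -0.46), Lpin1 (the third Sham, -0.49), Gpat3 (the first SCI+FIPI, -0.47), Lpar3 (the second Sham, 1.02) and Plppr3 (the second Sham or the second SCI+FIPI, -0.48, and 3 other settings). Lpar3 was removed by the filter of 10 counts in every mouse. Those offsets moved the median of all genes by -0.137 in SCI against Sham and -0.155 in SCI+FIPI against Sham, and turned the 14 higher and 17 lower genes into 12 and 19, and the 12 and 15 into 10 and 19. In SCI+FIPI against SCI they turned 3 higher and 0 lower into 2 and 1, the lower one being Lpar6. The cause was not tested.

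Replicate numbers are shared between groups, but deviations of same-numbered mice correlated at only -0.0726 to 0.108, so the numbers do not pair the mice. With the replicate block 31, 2 and 26 genes were called in SCI against Sham, SCI+FIPI against SCI and SCI+FIPI against Sham, and with the replicate block and the GC and length offsets 30, 2 and 29. Depth limits Lpar3 (8 to 38 counts a mouse), Dgkh (28 to 67) and Lpar5 (19 to 155).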
